A study of Mus musculus with 8 samples.

Results

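The 35 genes described here encode proteins that copy DNA in S phase or separate chromosomes in mitosis. They were taken as a fixed list of gene symbols known for these roles, drawn up with earlier results of these data known, and all 35 were among the 17261 genes of the count table. In this text 11 are called S-phase genes and 24 mitosis genes, although some of the latter (Ccna2, Top2a, Mki67) are also made before mitosis begins. RNA was sequenced from sorted microglia, the resident macrophages of the brain, gated as CD45 intermediate and CD11b positive, from male wild-type C57BL/6 mice. Young mice were 10 weeks old and aged mice 18 months old. Both ages received either distal middle cerebral artery occlusion (dMCAO), in which a cortical branch of the artery is closed as a model of stroke, or a sham operation, and cells were taken after 14 days. This gives 4 groups with 2 libraries each, called young sham and young dMCAO, and aged sham and aged dMCAO. The 2 libraries of a group are called 1 and 2, as in the labels, which do not say that they came from separate animals. The p-values below therefore measure only the spread between these libraries.

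Microglia of the healthy adult brain divide rarely, and injury can raise their division. Before S phase the MCM helicase is loaded on DNA, and E2F transcription factors switch on genes for the helicase and for nucleotide supply. Genes for mitosis are held down in resting cells by the DREAM complex, which binds a promoter element called the cell cycle genes homology region (CHR). The same promoters often hold CCAAT boxes, which bind NF-Y, and the genes peak together after DNA has been copied. In a tissue sample their RNA is widely read as a mark of dividing cells. In bulk RNA, more dividing cells and more of these RNAs per cell cannot be told apart.

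The promoters of 6 genes are printed because they show the elements found in the S-phase and in the mitosis genes. RefSeq promoter sequences of the mouse build GRCm38.p6 were found for 29 of the 35 genes, in a window of 280 bases from 250 before the gene start to 30 after it. The 6 hold the most different elements of those searched, with ties broken by expression. They lie at Mki67 chr7:135716350-135716629, Mcm7 chr5:138171854-138172133, Cdk1 chr10:69352883-69353162, Mcm3 chr1:20820283-20820562, Top2a chr11:99024160-99024439 and Cenpf chr1:189688057-189688336, all on the minus strand. Capitals mark matches on either strand to the CHR (as TTTGAA, or as TTCGAA), the CCAAT box (CCAAT) or an E2F element. E2F was searched as TTCCCGC, then as TTGGCGC, then as TTCGCGC and finally as TTGCCGC, and matches that overlap run together.
Mki67: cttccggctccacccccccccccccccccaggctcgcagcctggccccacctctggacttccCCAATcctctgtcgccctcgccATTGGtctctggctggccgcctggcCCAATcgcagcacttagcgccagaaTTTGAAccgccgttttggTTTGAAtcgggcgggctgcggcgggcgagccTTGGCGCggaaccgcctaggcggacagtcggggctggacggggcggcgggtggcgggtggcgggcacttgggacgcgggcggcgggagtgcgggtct
Mcm7: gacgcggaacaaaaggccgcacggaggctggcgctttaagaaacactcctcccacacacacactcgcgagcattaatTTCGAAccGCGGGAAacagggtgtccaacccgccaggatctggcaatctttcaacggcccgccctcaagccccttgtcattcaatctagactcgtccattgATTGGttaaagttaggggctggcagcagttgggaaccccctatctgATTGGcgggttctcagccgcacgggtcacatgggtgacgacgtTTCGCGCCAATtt
Cdk1: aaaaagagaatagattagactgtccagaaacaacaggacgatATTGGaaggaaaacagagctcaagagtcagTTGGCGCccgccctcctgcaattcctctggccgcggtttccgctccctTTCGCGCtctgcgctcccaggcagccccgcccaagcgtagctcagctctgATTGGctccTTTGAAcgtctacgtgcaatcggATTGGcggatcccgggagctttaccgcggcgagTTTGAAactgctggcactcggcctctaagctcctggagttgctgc
Mcm3: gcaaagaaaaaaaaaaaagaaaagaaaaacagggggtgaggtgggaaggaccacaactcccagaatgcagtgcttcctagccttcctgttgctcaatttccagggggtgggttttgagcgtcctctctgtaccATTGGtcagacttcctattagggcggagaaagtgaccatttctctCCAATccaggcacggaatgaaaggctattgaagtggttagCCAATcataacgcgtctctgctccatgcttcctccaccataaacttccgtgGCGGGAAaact
Top2a: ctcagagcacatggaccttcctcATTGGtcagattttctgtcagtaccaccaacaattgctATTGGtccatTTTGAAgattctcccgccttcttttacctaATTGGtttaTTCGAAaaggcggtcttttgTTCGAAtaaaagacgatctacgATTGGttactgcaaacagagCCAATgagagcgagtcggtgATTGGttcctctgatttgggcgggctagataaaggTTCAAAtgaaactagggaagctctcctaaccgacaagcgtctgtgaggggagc
Cenpf: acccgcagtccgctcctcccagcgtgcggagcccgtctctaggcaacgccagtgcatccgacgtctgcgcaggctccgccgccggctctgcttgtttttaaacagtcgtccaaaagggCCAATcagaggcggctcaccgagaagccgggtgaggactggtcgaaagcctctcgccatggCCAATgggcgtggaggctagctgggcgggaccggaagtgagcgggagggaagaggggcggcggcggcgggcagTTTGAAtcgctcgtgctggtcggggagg

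A CHR match stood in 13 of the 19 mitosis genes with a sequence (68.4%) and in 2 of the 10 S-phase genes (20.0%), against 18.6% of 27025 gene promoters cut to the same window. Each of those 13 mitosis promoters held a CCAAT box as well, a combination found in 7.07% of all promoters. E2F matches stood in 6 of 10 S-phase genes and 3 of 19 mitosis genes (15.8%), against 8.99% of all promoters and 16.4% of those of tested genes. CCAAT boxes were common in both, with 8 of 10 S-phase genes and 17 of 19 mitosis genes (89.5%) against 36.6%. In the printed set, Mki67, Mcm7 and Cdk1 hold all 3 elements, Mcm3 holds CCAAT boxes and an E2F match, and Top2a and Cenpf hold CHRs and CCAAT boxes. These are matches of letters and not measured binding sites.

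Depth differed by age. Library totals ran from 4181698 to 5767387 counts in the young libraries, and were 1484870 and 5124213 in aged sham and 747637 and 1297568 in aged dMCAO. Levels are in CPM, which divides each count by the TMM-scaled library total. At these depths 3 counts, the limit that a count of 0 allows, equal 0.473 to 0.656 CPM in the young libraries, 2.14 and 0.508 in aged sham and 4.28 and 3.27 in aged dMCAO. One library, aged sham 2, stood apart from the rest. The summed CPM of 12 microglia markers was 6751 there and 15372 to 22424 in the other 7 libraries, while 11 monocyte markers summed to 4760 against 76.8 to 1104. The authors' second table, in FPKM, did not match the counts under the same names for both aged dMCAO libraries. Deviations of gene levels in counts of aged dMCAO 1 correlated with FPKM of aged dMCAO 2 at r = 0.89 across 7590 genes, and with its own name at -0.05. Counts of aged dMCAO 2 likewise had r = 0.86 with FPKM of aged dMCAO 1, and -0.03 with its own name. The young sham 1 columns matched each other at 0.24, and the counts of young sham 1 were closest to FPKM of young sham 2 (0.64). Counts of young sham 2 were also closest to FPKM of young sham 2 (0.48, against 0.28 with FPKM of young sham 1). The young sham columns thus did not show the exchange of names seen in aged dMCAO. Which table carries the right names could not be settled. Values per library below rest on the counts, and under the names of the FPKM table those of aged dMCAO 1 and 2 would change places, with no change to group means.

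Across the 8 libraries the genes were highest in aged sham 2. The 35 genes summed to 337 and 629.6 CPM in young sham libraries 1 and 2, to 468 and 485 in young dMCAO, to 629.9 and 2901 in aged sham and to 497 and 810.3 in aged dMCAO. The library aged sham 2 was therefore 3.58 times the highest of the other 7. It was also the highest library for 29 of the 35 genes, against 19.3% of all 11955 tested genes, more than 2-fold above every other library for 20, against 5.2%, and more than 5-fold for 5, against 1.34%. Of the 20, Bub1 and Cdc20 passed the filter on low counts only with the counts of aged sham 2, which favoured their place there. Bub1 is also among the 5. Group means of the sum were 483 ± 207 CPM for young sham and 476 ± 12 for young dMCAO (SD, n = 2). For aged sham the mean was 1765 ± 1606, and for aged dMCAO 654 ± 222. The SD of the aged sham mean is almost as large as the mean itself, and the other aged sham library lay within the range of the remaining groups.

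**Figure D1:**
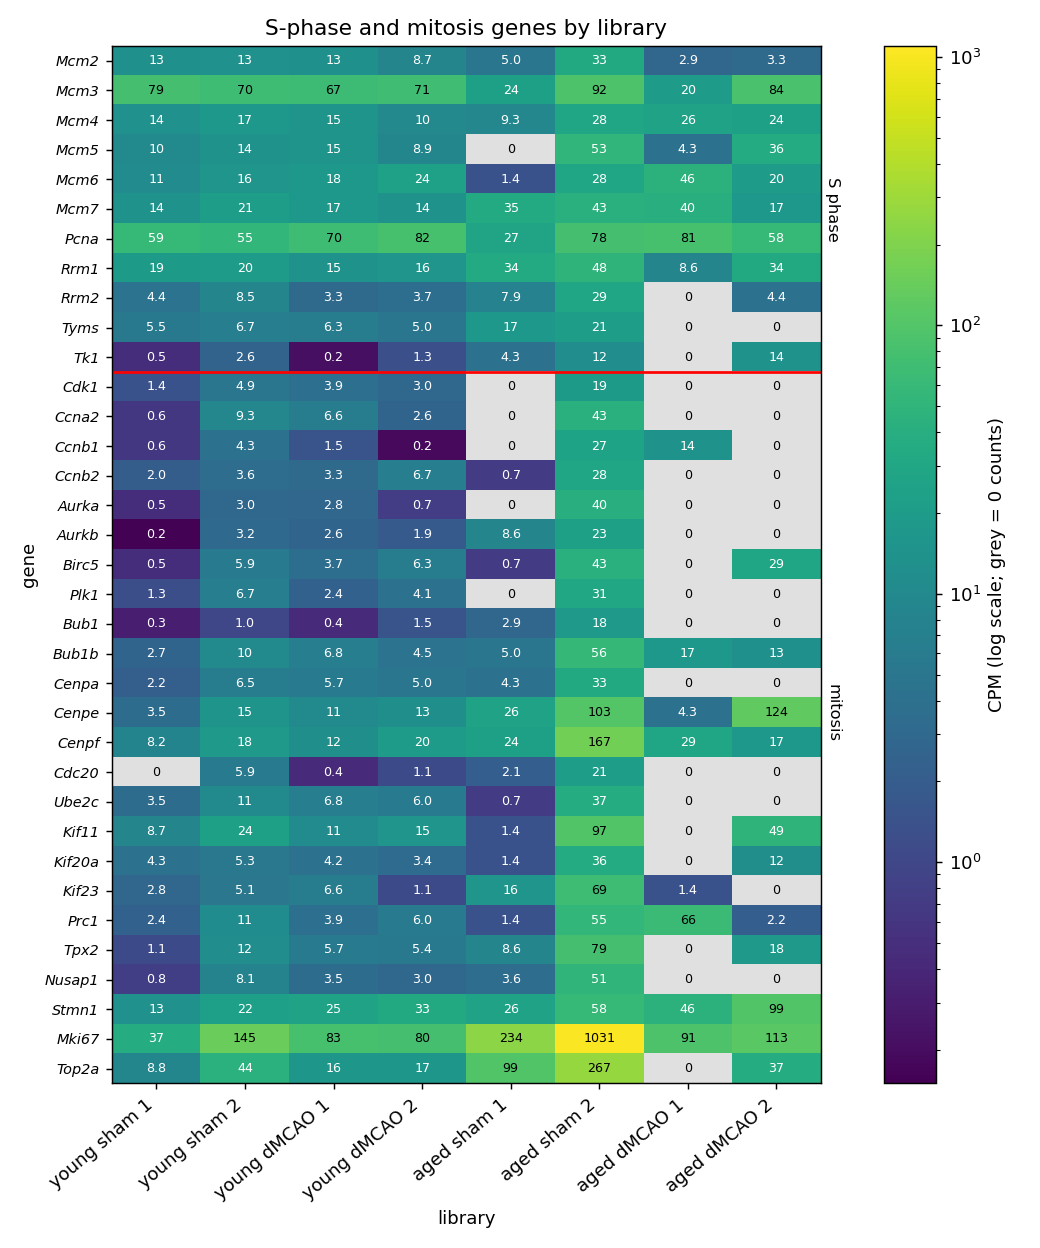
Level of each of the 35 genes (vertical axis) in each of the 8 libraries (horizontal axis), in CPM on a logarithmic color scale, with grey for 0 counts and the S-phase genes above the red line. The column of aged sham 2 is the brightest for 29 genes, and grey cells gather in aged dMCAO 1 (19 genes) and aged dMCAO 2 (14 genes).

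S-phase and mitosis genes did not stand apart by the same amount in aged sham 2. Its 11 S-phase genes summed to 467 CPM (95% Poisson interval 449 to 484), 1.58 times the next highest library and 1.95 times the median of the other 7. Its 24 mitosis genes summed to 2434 CPM (2394 to 2474), which was 4.72 and 9.07 times those values. These intervals cover counting error only. In the other 7 libraries S-phase genes stayed between 165 and 294 CPM, and mitosis genes ranged from 106 CPM in young sham 1 to 516 in aged dMCAO 2. Among the 20 genes more than 2-fold above every other library were 18 of the 24 mitosis genes and 2 of the 11 S-phase genes, Mcm2 and Rrm2. The 18 include Bub1 and Cdc20, which passed the filter on low counts only with aged sham 2. The median ratio to the next highest library was 1.11 for S-phase genes and 3.72 for mitosis genes.

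**Figure D2:**
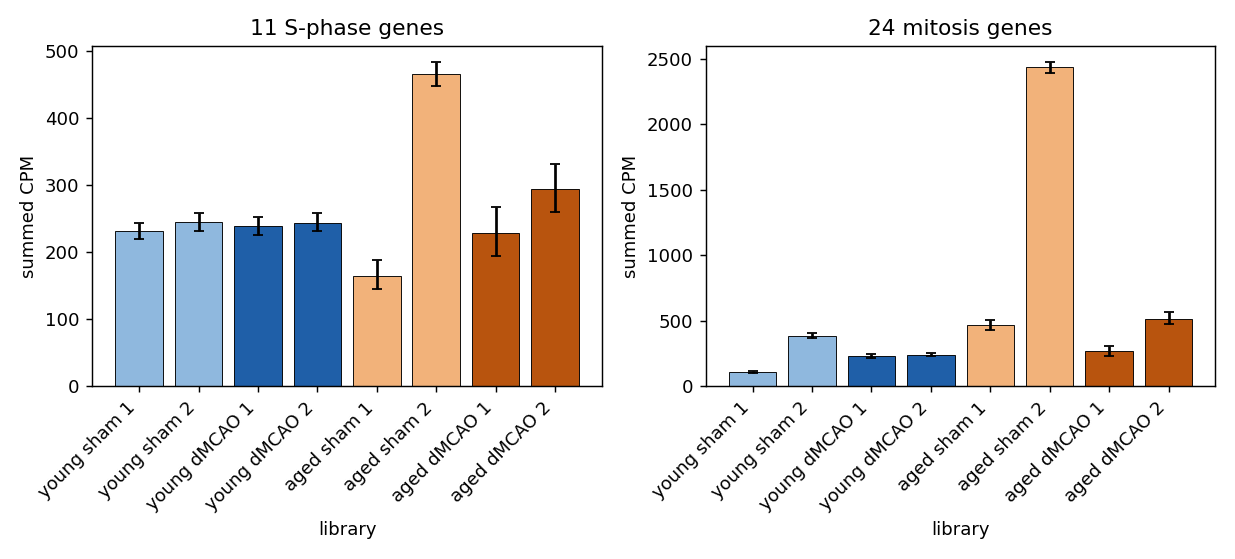
Summed CPM (vertical axes, from 0) of the 11 S-phase genes and of the 24 mitosis genes in each library, with 95% Poisson intervals of the summed count as error bars. S-phase sums lie between 165 and 467 CPM, while the mitosis sum of aged sham 2 reaches 2434 against 106 to 516 elsewhere.

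The balance of mitosis to S-phase genes needs no scaling between libraries. Counts of mitosis genes divided by counts of S-phase genes were 0.46 and 1.57 in young sham, 0.958 and 0.984 in young dMCAO, 2.81 and 5.22 in aged sham and 1.18 and 1.75 in aged dMCAO. Both aged sham libraries were above the other 6, and the 2 young sham libraries lay below and above both young dMCAO libraries. Mki67 weighs on this ratio, since it gave 37.1% and 35.5% of the genes' counts in aged sham and 10.8% to 23.0% in the other libraries. Without it the ratio was 1.40 and 3.01 in aged sham, 1.37 in aged dMCAO 2 and 0.302 to 0.978 in the other 5 libraries. Of the aged sham libraries, aged sham 2 then remained clearly apart, and aged sham 1 was close to aged dMCAO 2.

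Among the S-phase genes, the 6 subunits of the MCM helicase, the ring that unwinds DNA at the replication fork, summed to 142 and 152 CPM in young sham and 144 and 137 in young dMCAO. Aged sham gave 74.4 and 278 CPM, and aged dMCAO 138 and 184. The young libraries were thus close to each other, and the 2 aged sham libraries were the lowest and the highest of the 8. Mcm3 was 79.3 and 70.2 CPM in young sham, 67.1 and 70.7 in young dMCAO, 23.6 and 92.2 in aged sham and 20.0 and 84.0 in aged dMCAO. In each aged group 1 library was far below the young libraries and the other above them. Mcm2 was 13.2 and 13.4 CPM in young sham, 12.9 and 8.74 in young dMCAO, 5.0 and 33.4 in aged sham and 2.86 and 3.27 in aged dMCAO, so that both aged dMCAO libraries were below the other 6.

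The other helicase subunits varied in the aged libraries without a shared order. Mcm5 had no counts in aged sham 1 and 53.0 CPM in aged sham 2, and was 4.28 and 36.0 CPM in aged dMCAO against 8.93 to 14.9 in the young libraries. Mcm6 was 1.43 and 28.5 CPM in aged sham and reached its highest level, 45.7 CPM, in aged dMCAO 1. Mcm4 was higher in aged dMCAO (25.7 and 24 CPM) than in young dMCAO (14.9 and 10.0), with aged sham at 9.29 and 28.5. Mcm7 was 35 and 42.9 CPM in aged sham against 14.5 and 21.4 in young sham, with no overlap, and 40 and 17.4 in aged dMCAO against 17.0 and 14.0 in young dMCAO. The CHR that the Mcm7 promoter above holds is shared with Mcm2 and with no other S-phase gene that had a sequence.

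Pcna encodes the sliding clamp that holds the DNA polymerases. It was 59.3 and 55.2 CPM in young sham, 70.1 and 81.8 in young dMCAO, 27.2 and 78.4 in aged sham and 81.4 and 57.8 in aged dMCAO. Aged sham 2 was not its highest library. Per kilobase of exon, the scale on which genes can be set beside each other, Pcna had the highest level of the 35 genes in all 4 young libraries (23.0 to 34.1 CPM per kb) and in aged dMCAO 1 (33.9). Mki67 led in both aged sham libraries (23.2 and 102 CPM per kb) and Stmn1 in aged dMCAO 2 (51.6). Pcna, Stmn1, Tyms and Ccnb1 have pseudogenes in the GENCODE annotation, and how the authors' counting treated reads shared with them is not given in the sources used here.

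Genes of nucleotide supply were at their highest group mean in aged sham. Rrm1 and Rrm2 encode the subunits of ribonucleotide reductase, which makes deoxynucleotides. Rrm1 was 19.1 and 20.4 CPM in young sham, 14.6 and 15.6 in young dMCAO, 34.3 and 48.3 in aged sham and 8.57 and 33.8 in aged dMCAO, so that aged sham lay above the other 6 libraries. Rrm2 was 4.42 and 8.50 CPM in young sham, 3.28 and 3.72 in young dMCAO, 7.86 and 28.6 in aged sham, and 0 and 4.36 in aged dMCAO. Tyms, the thymidylate synthase, was 5.52 and 6.72 CPM in young sham, 6.34 and 5.02 in young dMCAO and 17.2 and 21.2 in aged sham, and had no counts in either aged dMCAO library. The 2 aged sham libraries were near each other for Tyms, and both were above every young library. Tk1, the cytosolic thymidine kinase, ranged from 0.219 to 2.57 CPM in the young libraries, was 4.29 and 11.7 in aged sham, and was 0 and 14.2 in aged dMCAO.

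Among the mitosis genes, the kinase Cdk1 and the cyclins that activate it (Ccna2, Ccnb1 and Ccnb2) summed to 4.73 and 22.1 CPM in young sham and 15.3 and 12.5 in young dMCAO. In aged sham they summed to 0.715 CPM, a single count, and 117, and in aged dMCAO to 14.3 and 0. Cdk1 itself was 1.42 and 4.94 CPM in young sham, 3.93 and 2.98 in young dMCAO, 0 and 19.0 in aged sham and 0 in both aged dMCAO libraries. The cyclin gene Ccna2 was 0.631 and 9.29 CPM in young sham, 6.56 and 2.60 in young dMCAO, 0 and 43.2 in aged sham and 0 in both aged dMCAO libraries. For these genes aged sham 1 was at or under its 3-count limit of 2.14 CPM, so the aged sham group was carried by 1 library. The 14.3 CPM of aged dMCAO 1 came from Ccnb1 alone.

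Kinases and checkpoint genes of the spindle were highest in aged sham 2, with differing levels elsewhere. Aurka, which acts at the centrosomes, was 0.473 and 2.97 CPM in young sham, 2.84 and 0.744 in young dMCAO, 0 and 40.5 in aged sham and 0 in both aged dMCAO libraries. At 13.7 times the next highest library, it had the largest such ratio of the 35 genes in aged sham 2, which held 87.2% of its counts. Plk1, a kinase needed for spindle assembly and mitotic exit, was 1.26 and 6.72 CPM in young sham, 2.40 and 4.09 in young dMCAO, 0 and 30.8 in aged sham and 0 in both aged dMCAO libraries. Aurkb, the kinase of the chromosomal passenger complex, was 0.158 and 3.16 CPM in young sham, 2.62 and 1.86 in young dMCAO, 8.58 and 23.4 in aged sham and 0 in both aged dMCAO libraries. Its 2 aged sham values were both above the young ones, unlike those of Aurka and Plk1. Birc5 (survivin), its partner in that complex, was 0.715 and 43.0 CPM in aged sham, 0 and 29.4 in aged dMCAO and 0.473 to 6.32 in the young libraries. The checkpoint gene Bub1 was 2.86 and 18.1 CPM in aged sham, 0.315 to 1.49 in the young libraries and 0 in aged dMCAO. Bub1b was 5.0 and 56.2 CPM in aged sham, 17.1 and 13.1 in aged dMCAO and 2.68 to 10.1 in the young libraries.

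The 3 centromere genes summed to 13.9 and 39.1 CPM in young sham, 28.8 and 37.6 in young dMCAO, 53.6 and 302 in aged sham and 32.8 and 142 in aged dMCAO. Cenpf encodes a kinetochore protein, and its CHR stands close to the gene start in the sequence above. It was 8.2 and 17.8 CPM in young sham, 12.5 and 19.7 in young dMCAO, 23.6 and 167 in aged sham and 28.6 and 17.4 in aged dMCAO. Both aged sham libraries lay above both young sham libraries, and aged sham 2 was 5.83 times the next highest. Cenpe, a motor protein that carries chromosomes to the spindle equator, was 3.47 and 14.8 CPM in young sham, 10.7 and 12.8 in young dMCAO, 25.7 and 103 in aged sham and 4.28 and 124 in aged dMCAO. It is the one centromere gene for which aged sham 2 was not the highest library. Cenpa, the histone variant that marks the centromere, was 4.29 and 32.9 CPM in aged sham, 2.21 to 6.52 in the young libraries and 0 in aged dMCAO. The activator of the anaphase-promoting complex, Cdc20, was 0 and 5.93 CPM in young sham, 0.437 and 1.12 in young dMCAO, 2.14 and 21.3 in aged sham and 0 in aged dMCAO. Ube2c, the ubiquitin-conjugating enzyme of that complex, was 3.47 and 10.7 CPM in young sham, 6.77 and 5.95 in young dMCAO, 0.715 and 37.1 in aged sham and 0 in aged dMCAO.

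The 7 genes of the spindle and of cytokinesis summed to 33.4 and 87.8 CPM in young sham, 59.7 and 67.1 in young dMCAO, 57.9 and 446 in aged sham and 113 and 181 in aged dMCAO. Kif23, a kinesin of the central spindle, was 2.84 and 5.14 CPM in young sham, 6.56 and 1.12 in young dMCAO, 15.7 and 69.3 in aged sham and 1.43 and 0 in aged dMCAO. Both aged sham libraries were above the other 6 for Kif23. Kif11, the motor that pushes the spindle poles apart, was 8.67 to 23.5 CPM in the young libraries, 1.43 and 97.4 in aged sham and 0 and 49.1 in aged dMCAO. Prc1, which bundles microtubules at the spindle midzone, was highest in aged dMCAO 1 (65.7 CPM), with 2.18 in aged dMCAO 2, 1.43 and 55.1 in aged sham and 2.37 to 11.3 in the young libraries. Tpx2 and Nusap1, which help microtubules to form and bundle, reached 79.1 and 51.0 CPM in aged sham 2, against highest values elsewhere of 18.5 and 8.11. Kif20a, a kinesin of cytokinesis, was 35.9 CPM there and 0 to 12 elsewhere. Stmn1 (stathmin), which takes microtubules apart and is also made by cells that do not divide, differed from the other mitosis genes. It was 13.4 and 22.5 CPM in young sham, 24.9 and 32.9 in young dMCAO, 25.7 and 58.3 in aged sham and 45.7 and 99.2 in aged dMCAO, with aged dMCAO 2 the highest.

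Mki67 and Top2a, whose promoters are shown above, act on the structure of chromosomes. Mki67 encodes the Ki-67 protein that coats mitotic chromosomes, the usual stain for cycling cells. It was 36.6 and 145 CPM in young sham, 82.6 and 80.4 in young dMCAO, 234 and 1031 in aged sham and 91.4 and 113 in aged dMCAO. Both aged sham libraries were above the other 6, and aged sham 2 was 4.41 times aged sham 1. Top2a, the topoisomerase that untangles sister chromatids, was 8.83 and 44.1 CPM in young sham, 16.4 and 16.7 in young dMCAO, 98.7 and 267 in aged sham and 0 and 37.1 in aged dMCAO. For both genes the young sham libraries spanned the young dMCAO libraries. In the authors' FPKM table Mki67 was 50.5 in aged sham 2 and 1.80 to 14.0 in the other 7 columns, and 26 of the 35 genes were highest there, against 22.4% of all genes with a value above 0.

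Depth bears on the genes with no counts. Of the 35 genes, 19 had no counts in aged dMCAO 1 and 14 in aged dMCAO 2, where 25.7% and 21.2% of all tested genes also had none. In aged sham 1 the number was 6, in young sham 1 it was 1, and in the other 4 libraries 0. After every library had been thinned at random to 747637 counts, the smallest total, genes with a count numbered 26 and 34 in young sham, 31 and 28 in young dMCAO, 26 and 35 in aged sham and 16 and 20 in aged dMCAO. Summed thinned counts of the 35 genes were 278 and 501, 383 and 410, 431 and 2567, and 348 and 418 in the same order. At equal totals the aged dMCAO libraries thus held fewer of the genes, while their summed counts lay within the range of the 4 young libraries.

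The first comparison asks how stroke changed these genes in young mice. They were near their sham level, with 12 of 35 above 0 and a median log2 fold change of -0.15, where that over every tested gene was 0. Medians were -0.21 for S-phase and -0.13 for mitosis genes. Stmn1, with the smallest p, had a log2 fold change of 0.69 ± 0.63, Cdc20 of -1.87 ± 2.01 and Pcna of 0.41 ± 0.52 (SE, n = 2 per group), each with an adjusted p of 1 in edgeR's quasi-likelihood test. By that test 0 genes of the list passed an adjusted p under 0.05, against 0.00836% of tested genes, and 0 had an unadjusted p under 0.05, against 1.24%. DESeq2 and limma-voom also called 0, where DESeq2 called 0.276% of tested genes. Both young dMCAO libraries were above both young sham libraries for 3 genes (Mcm6, Pcna and Stmn1), against 20.7% of tested genes, and below them for 4 (Mcm2, Rrm1, Rrm2 and Kif20a), against 20.4%. For 16 genes both young dMCAO values fell between the 2 young sham values. The median depended on which sham library was used: without young sham 2 it was 0.95, with 29 of 35 genes above 0, and without young sham 1 it was -0.53. With a replicate block by the N code of the library titles it was -1.13, with 2 of 35 genes above 0.

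The 2 young sham libraries differed in these genes. Young sham 2 was above young sham 1 for 33 of the 35 genes, among them 24 of 24 mitosis genes and 9 of 11 S-phase genes, while 50.7% of all tested genes were higher there. In the authors' FPKM table the order of these 2 names was the opposite, with young sham 2 below young sham 1 for 33 of the 35 genes and Mki67 at 14.0 in young sham 1 and 1.90 in young sham 2. Which young sham library was the higher one therefore depends on the table. S-phase sums were 231 and 245 CPM, and mitosis sums 106 and 385. Several lists of cell markers moved with the mitosis genes between the 2 libraries. The 11 markers of myeloid precursors of the bone marrow summed to 129 and 459.5 CPM, those of monocytes to 76.8 and 410.5, of border macrophages to 202 and 401 and of choroid plexus to 117 and 385. Mpo, which encodes the granule enzyme myeloperoxidase, was 19.4 and 218 CPM, and Elane, neutrophil elastase, 5.99 and 62.5. Cd34, the precursor marker with the highest mean, was 89.6 and 105 CPM. The part of these cells in the result was not tested.

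In aged mice most fitted values were lower after dMCAO. The fitted log2 fold change was above 0 for 5 of 35 genes, with a median of -2.21 against -0.29 over all tested genes. The S-phase median was -0.41, and the mitosis median -4.63, or -3.04 with genes that had no counts in aged dMCAO set at 3 counts over the group. By edgeR 0 genes passed the adjusted threshold, against 0.0335% of tested genes. An unadjusted p under 0.05 was reached by 15 of the 35, and by 18.3% of tested genes. DESeq2 called 6 of them lower, Tyms, Cenpa, Kif23, Mki67, Nusap1 and Ube2c, and limma-voom 0, where DESeq2 called 5.81% of tested genes lower. The aged dMCAO libraries were both below the aged sham libraries for 14 genes (23.8% of tested genes), 4 for S phase (Mcm2, Rrm1, Rrm2, Tyms) and 10 for mitosis (Ccnb2, Aurkb, Bub1, Cenpa, Cdc20, Ube2c, Kif23, Nusap1, Mki67, Top2a). For 0 genes were both above, against 11.6% of tested genes. Of the 14 genes, Bub1 passed the filter on low counts only through the aged sham libraries, which fixed its place among them.

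Sizes in that comparison are bounds for the genes at 0. They cover counting error only, not the spread between libraries, and set no floor on a difference between the groups. Tyms had 0 counts in aged dMCAO against 149 in aged sham, and was at least 11-fold lower (adjusted p = 0.14, edgeR). Nusap1 was at least 22.6-fold lower (0 against 306 counts), Ccna2 18.8-fold (0 against 255), Aurka 17.6-fold (0 against 239) and Ube2c 16.2-fold (0 against 220). Kif23 had 1 count against 431, a ratio of 95.5-fold lower with a 95% exact binomial interval of 17.0 to 3779 for counting error only, and 409 of the 431 came from aged sham 2 (adjusted p = 0.153, edgeR). Mki67 had a log2 fold change of -2.63 ± 0.77 (SE, n = 2 per group, adjusted p = 0.163 by edgeR). Most of these counts came from aged sham 2, and for Ccna2 and Aurka aged sham 1 had none, so that 1 library set those bounds. Without it the median of the 35 genes was 0.00, equal to that of all tested genes, with 15 genes above 0, and Mki67 was at -1.15. Cdk1, Ccna2, Aurka and Plk1 then had no counts in any aged library, and 10 other genes had none in 1 of the 2 groups. The median of 0.00 falls on genes without counts and is no measured lack of change. Without aged dMCAO 2 the median was -8.37, or -2.43 with the bounds.

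After sham surgery most fitted values were higher in aged than in young mice. The log2 fold change was above 0 for 33 of 35 genes, 24 of 24 for mitosis and 9 of 11 for S phase, with a median of 2.08 against -0.02 over all tested genes. The mitosis median was 2.43 and the S-phase median 1.07. Mki67 had 2.81 ± 0.76 (adjusted p = 0.329), Cenpf 2.89 ± 0.91 (0.391) and Kif23 3.42 ± 1.26 (0.441), each with its SE and the adjusted p of edgeR. By edgeR 0 of the 35 genes and 0% of tested genes passed the adjusted threshold, and 5 genes had an unadjusted p under 0.05, against 9.44% of tested genes. DESeq2 called 2 genes higher (Cenpf and Mki67), against 2.48% of tested genes, and limma-voom 0. With a quality weight per library limma-voom called 6 higher (Aurkb, Cenpe, Cenpf, Kif23, Mki67 and Top2a), against 3.34%. Both aged sham libraries were above both young sham libraries for 12 genes, against 18.2% of tested genes: Mcm7, Rrm1, Tyms and Tk1 of S phase, and Aurkb, Bub1, Cenpe, Cenpf, Kif23, Stmn1, Mki67 and Top2a of mitosis. Both were below for 0, against 26.3%. Of the 12 genes, Bub1 passed the filter on low counts only through the aged sham libraries, which fixed its place among them.

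The 2 aged sham libraries did not share this order for most of the other genes. Aged sham 2 was above both young sham libraries for all 35 genes. Aged sham 1 was above both for 12, and below both for 16. Without aged sham 2 the median log2 fold change was -0.46 (-0.31 with bounds for the genes at 0), with 14 of 35 above 0 and a median of -0.29 over all tested genes. Without it Mki67 was at 1.36, Cenpf at 0.86 and Kif23 at 1.97. Without young sham 2 the median was 3.51.

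**Figure D3:**
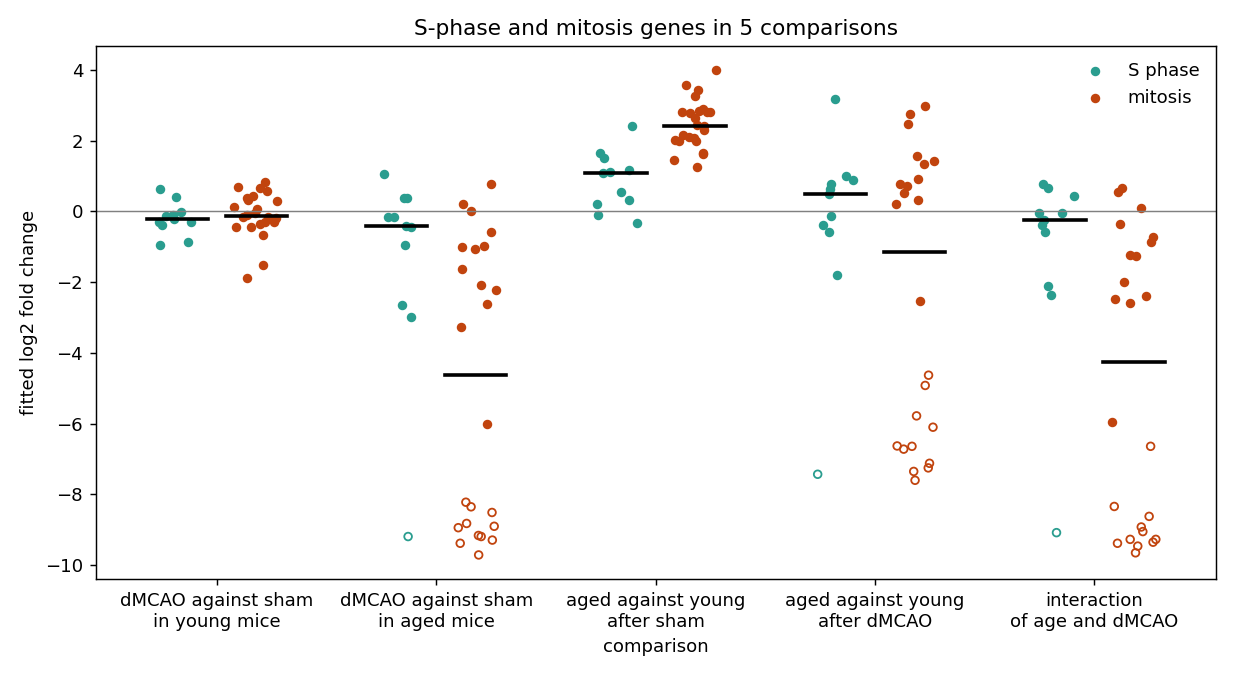
Fitted log2 fold change (vertical axis) of the 11 S-phase and 24 mitosis genes in the 5 comparisons (horizontal axis), 1 point per gene, with a black line at the median. Hollow points are genes with 0 counts in aged dMCAO, whose position depends on the prior count of the fit and is no size, and mitosis medians are -0.13 for young mice, -4.63 for aged mice, 2.43 for age after sham, -1.15 for age after dMCAO and -4.26 for the interaction.

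After dMCAO the genes did not move one way between the ages. The log2 fold change of aged against young dMCAO was above 0 for 18 of 35, with a median of 0.21, or 0.50 with bounds, against -0.32 over all tested genes. The S-phase median was 0.50. Among mitosis genes 12 of 24 were above 0, with a median of -1.15, or 0.42 with bounds. The bounds on size here again cover counting error only. By them Tyms was at least 3.03-fold lower in aged dMCAO (0 against 56 counts, adjusted p = 0.158 by edgeR). Ube2c was at least 3.41-fold lower (0 against 63, adjusted p = 0.271) and Cenpa 2.87-fold (0 against 53, 0.231), by the same test. By edgeR 0 genes of the list were called, against 0.0753% of tested genes, and 2 had an unadjusted p under 0.05, against 19.6%. DESeq2 and limma-voom called 0 of the list, where DESeq2 called 10.3% of tested genes. Both aged dMCAO libraries were above both young ones for Mcm4, Mcm7, Bub1b, Stmn1 and Mki67, 5 genes, against 15.5% of tested genes. They were below for 13, among them Mcm2, Tyms, Cdk1 and Plk1, against 40.4%. Without aged dMCAO 2 the median was -4.78, or 0.20 with bounds, and without aged dMCAO 1 it was -0.11, or 0.46 with bounds.

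The interaction asks whether dMCAO acted differently at the 2 ages. The difference of the log2 fold changes, aged less young, was above 0 for 6 of 35 genes, with a median of -2.11, or -1.99 with bounds, against -0.36 over all tested genes. It was -0.24 for S-phase genes and -4.26 for mitosis genes, or -2.53 with bounds. The smallest p belonged to Tyms (adjusted p = 0.391), Cenpa (0.419) and Kif23 (-5.94 ± 2.09, 0.428), by edgeR. That test called 0 genes of the list and 0% of tested genes, with 9 of 35 at an unadjusted p under 0.05, against 10.4% of tested genes. DESeq2 called 1, Tyms, below 0, against 1.71% (2.51% in either direction), and limma-voom 0. Without aged sham 2 the median was -0.02 (0.15 with bounds) against 0.02 for all tested genes, and without aged dMCAO 2 it was -7.15 (-2.41 with bounds). These 5 comparisons share libraries, so their values are not independent of each other.

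Other genes of the cell cycle, listed by function and none of them among the 35, were set beside them. Of 48 other mitosis genes, 38 were highest in aged sham 2 and 27 more than 2-fold above every other library. Their sum was 222 and 358 CPM in young sham, 331 and 303 in young dMCAO, 459 and 1762 in aged sham and 311 and 348 in aged dMCAO. Of 41 other replication genes 18 were highest in aged sham 2 and 5 more than 2-fold above the rest, with a sum of 862 CPM there and 419 to 737 elsewhere. In the wider cycle too, more mitosis than replication genes stood that far apart. Smc4, a condensin subunit that compacts chromosomes, was 21.6 and 31.2 CPM in young sham, 36.7 and 28.1 in young dMCAO, 12.2 and 204 in aged sham and 2.86 and 3.27 in aged dMCAO. Incenp, the scaffold on which Aurkb and Birc5 act, was 31.7 and 41.3 CPM in young sham, 97.9 and 119 in aged sham, and 99.9 and 40.4 in aged dMCAO. Dnmt1, which copies DNA methylation onto new strands, was 196 and 160.2 CPM in aged sham, 154 and 129 in aged dMCAO and 71.8 to 107 in the young libraries.

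Genes of cycle entry and of arrest were measured as well. The 24 genes of cycle entry summed to 965 CPM in aged sham 2 and to 419 to 626 elsewhere, with 13 highest there and 8 more than 2-fold above every other library. Its Ccnd1 level, for the cyclin of G1, was 41.8 CPM against 40.4 to 104 in the other libraries. Inhibitors of the cyclin-dependent kinases (7 genes) summed to 232 CPM there and 209 in aged dMCAO 2, and to 85.6 to 163 in the other 6. The inhibitor Cdkn1a (p21) was 22.6 and 12.5 CPM in young sham, 41.3 and 54.7 in young dMCAO, 22.2 and 67.1 in aged sham and 70.0 and 122 in aged dMCAO. Both dMCAO libraries were above both sham libraries at each age for Cdkn1a, as they were for 20.7% of tested genes in young and 11.6% in aged mice. Replication-dependent histone genes (52) summed to 1119 CPM in aged sham 2, 1068 and 1118 in aged dMCAO, 754 in aged sham 1 and 332 to 548 in the young libraries. A list of 19 chromatin and tubulin genes of dividing cells summed to 1485 to 1699 CPM in the young libraries, 2670.4 and 3619 in aged sham and 2753 and 2914 in aged dMCAO, with no overlap of the ages. Among single tested genes, aged libraries lay above young ones without overlap for 18.2% after sham and 15.5% after dMCAO. The histone sum, unlike that of the mitosis genes, was about as high in aged dMCAO as in aged sham 2. This did not hold for most single histone genes. Of the 52, 21 and 24 had a count in aged dMCAO, against 51 in aged sham 2. For dMCAO in aged mice 13 of 35 tested had a log2 fold change above 0, with a median of -0.8, or -0.6 with bounds.

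By the edgeR test 0 genes of these 6 lists were called in any of the 5 comparisons, and limma-voom also called 0. For the other mitosis genes, 28 of 42 tested were above 0 for dMCAO in young mice, with a median of 0.25 and 0 genes at an unadjusted p under 0.05. In aged mice 7 of 42 were above 0, with a median of -2.85, or -2.30 with bounds. There 17 genes had an unadjusted p under 0.05 by edgeR, against 18.3% of all tested genes, and DESeq2 called 8, against 8.78%. For age after sham 40 of 42 were above 0, with a median of 2.32, 10 genes at an unadjusted p under 0.05 (9.44% of tested genes) and 5 called by DESeq2 (3.26%). For age after dMCAO 15 of 42 were above 0, with a median of -1.22, or -0.17 with bounds. There 6 genes had an unadjusted p under 0.05, against 19.6%, and DESeq2 called 2, against 10.3%. The other replication genes had smaller medians, at -0.10, -0.83, 0.52 and -0.29 (-0.13 with bounds) over 39 tested, in the same order of comparisons. Of these 0, 8, 3 and 6 had an unadjusted p under 0.05, and DESeq2 called 0, 3, 0 and 3, which in aged mice and for both age comparisons is near or below the shares of all tested genes just given. For the chromatin and tubulin genes 0, 7, 8 and 8 had an unadjusted p under 0.05, and DESeq2 called 0, 4, 5 and 8, against 0.276%, 8.78%, 3.26% and 10.3% of all tested genes.

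**Figure D4:**
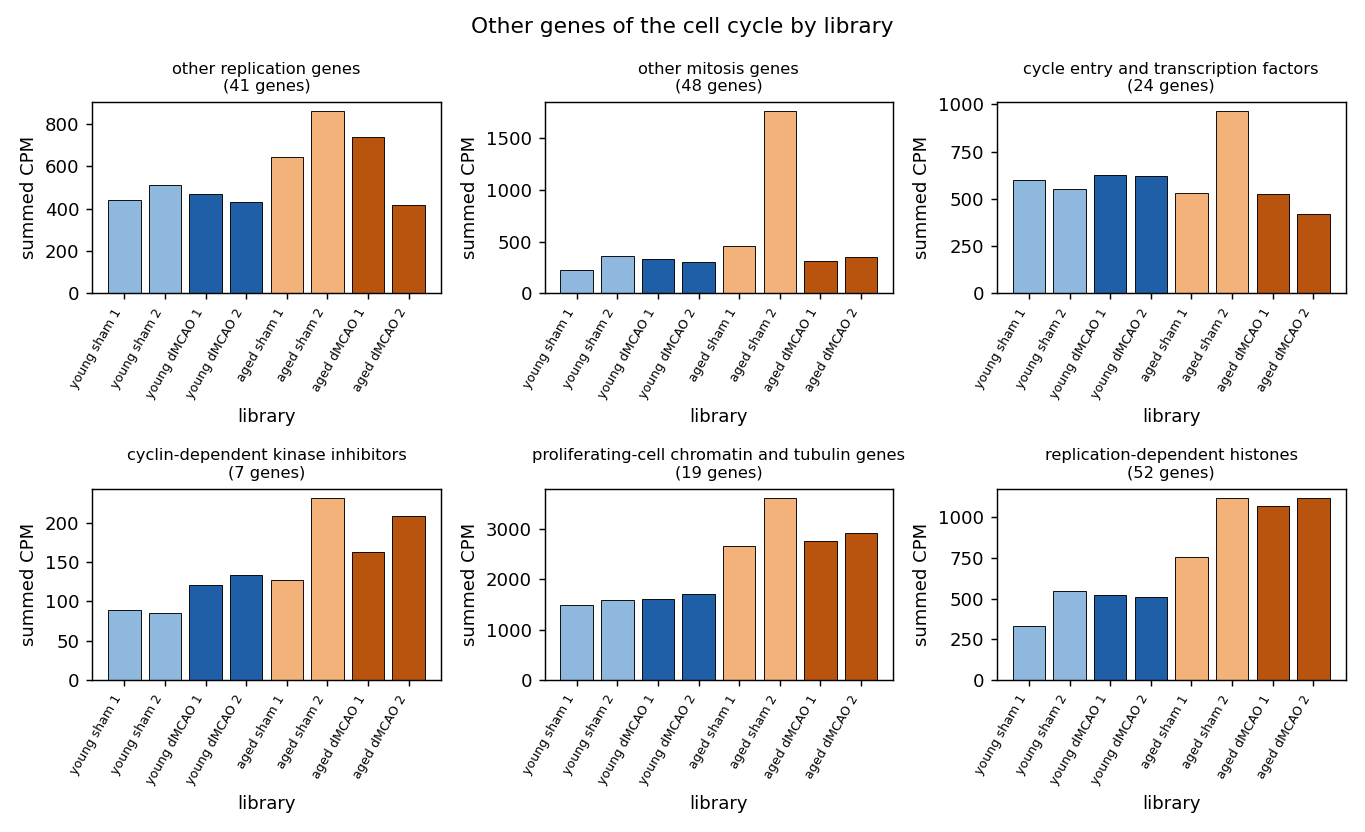
Summed CPM (vertical axes, from 0, 1 scale per panel) of 6 lists of other cell cycle genes in each library (horizontal axes). The bar of aged sham 2 stands at 1762 CPM for other mitosis genes against 222 to 459 elsewhere, while the histone sum is also high in both aged dMCAO libraries (1068 and 1118 CPM).

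Markers of other blood cells were measured in the same libraries, since several of those cell types divide. In aged sham 2 the mitosis genes were high together with markers of monocytes, of which 10 of 11 were highest there. Fn1 was 2968 CPM against 33.6 to 865 elsewhere, the integrin gene Itgal 556 against 5.71 to 54.5, and Ccr2, the receptor that draws monocytes to chemokine, 330.2 against 0 to 42.2. Of 14 T and NK cell markers 11 were highest there, with a sum of 111 CPM against 2.14 to 20.7. Cd4, the marker of this list with the highest mean, was lowest in aged sham 2 at 0.508 CPM, and 11.4 and 19.6 in aged dMCAO. The granule genes Gzma and Prf1 were 32.2 and 24.4 CPM there and at most 0.437 and 0.395 elsewhere. The 10 B cell markers summed to 362 CPM against 131 to 246. Of the microglia markers Cx3cr1 was 1041 CPM there against 2892 to 13803, and Csf1r 2059 against 1719 to 5572. What part these cells had in the level of the mitosis genes was not tested.

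Not every marker moved with that library. Myeloid precursor markers summed to 334 CPM in aged sham 2, below young sham 2 (459.5) and aged dMCAO 2 (382), and 127 to 195 in the other 5. Neutrophil markers summed to 1773 CPM there, within the 719.6 to 2103 of the other libraries. The 8 precursor B cell markers, by contrast, had their highest sum there, at 82.0 CPM against 12.9 to 59.8. Of these 8 markers, 3 were highest there and 2 more than 2-fold above every other library, while Rag2 was at 0 in all 8 libraries. For erythroid cells, whose precursors also divide, Klf1 and Car1 had no counts in any library, and the list summed to 24.7 CPM in aged sham 2 and 1.43 to 76.5 elsewhere. Aged dMCAO 2, the library with the next highest sum of the 35 genes, held the highest sums for oligodendrocyte precursors (196 CPM, against 1.98 to 26.8) and neural progenitors (122 against 4.07 to 22.8), both dividing cells of the brain. There Pdgfra was 133 CPM against 0 to 2.86, Cspg4 63.3 against 0 to 21.9 and Egfr 54.5 against 0 to 0.93. These sums came from few genes, since 2 of 7 and 3 of 8 markers had a count in that library, with Olig2 and Sox2 at 0. Choroid plexus markers were high in both aged dMCAO libraries, at 5377 and 3634 CPM against 4.84 to 895. Border macrophage markers summed to 863 CPM in aged sham 2 and 111 to 800 elsewhere, and endothelial markers to 109 against 41.4 to 147. The sum of dendritic cell markers was lowest in aged sham 2, at 459 CPM against 886 to 1555. Most of it was Siglech, which is also on the microglia list, at 335 CPM there and 776 to 1447 elsewhere. Here too, the part of such cells in the level of the 35 genes was not tested.

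**Figure D5:**
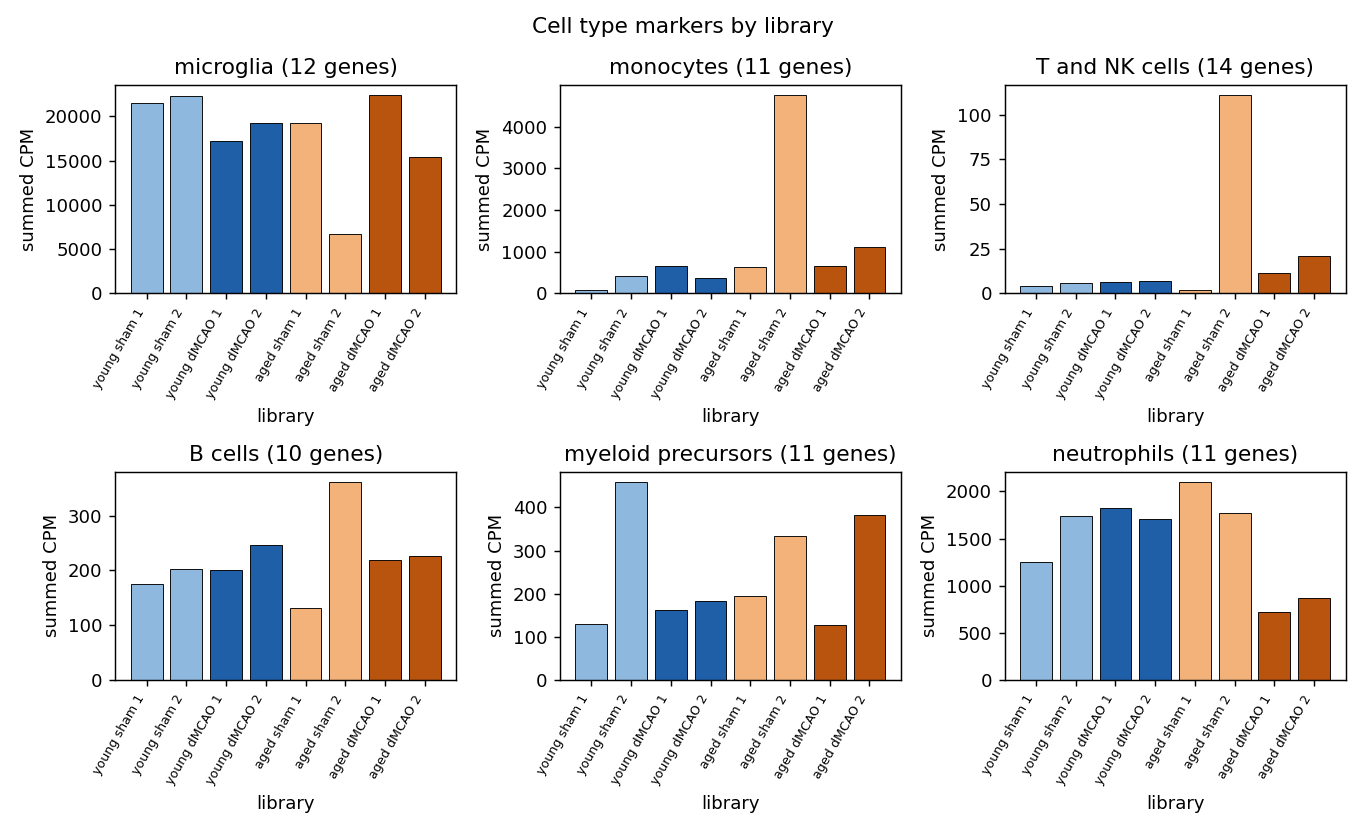
Summed CPM (vertical axes, from 0, 1 scale per panel) of markers of microglia, monocytes, T and NK cells, B cells, myeloid precursors and neutrophils in each library (horizontal axes). Aged sham 2 has the lowest microglia bar (6751 CPM) and the highest monocyte bar (4760), and young sham 2 has the highest myeloid precursor bar (459.5).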

How the data were processed

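RNA-seq counts of 8 libraries in 4 groups of 2 were used. Per the labels' protocols, RNA of cells sorted on a FACS Aria was turned into stranded total RNA libraries with a SMARTer Pico kit. The submitters' processing notes name TopHat, TopHat2, Cufflinks 2.2.1 and HTSeq 0.11.2 with build mm10. For each table, the aligner, the strand counted and the gene annotation are not given in the sources. The authors deposited a table of whole-number counts per gene symbol (17261 genes) and a table of FPKM (23827 genes). They share 17026 symbols, after a leading space was removed from 24 symbols of the count table, and 23 FPKM symbols that stand as dates were left unmatched.

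Counts were fitted in edgeR 4.0.16 (R 4.3.3) with TMM factors and filterByExpr (minimum count 10, minimum total 15), which kept 11955 genes and all 35 members. One quasi-likelihood model with 4 group means covered all 8 libraries (4 residual degrees of freedom). Tests were two-sided, with Benjamini-Hochberg adjustment over all tested genes and a threshold of 0.05. The code of the fit was run on simulated counts with a smaller spread than these data, which does not show its power or error rate here. Where a group held no count, bounds used 3 counts summed over its libraries, and 1 to 3 counts carry an exact binomial interval. Both cover counting error only. No p was computed over the list.

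Alternatives were other scalings and filters, DESeq2 1.42.0, limma 3.58.1 (voom, quality weights, FPKM of mean 1 or more, plus 1 or 0.1), blocks by number, thinning, Rn45s left out and each library left out. The members and lists were chosen with earlier results of these data known. In each comparison the 3 members with the smallest p were named with their fold change. At most 4 genes of a pathway list and 3 of a marker list, by mean CPM, were named. Lists of dendritic cells, border macrophages and endothelial cells were also summed. Exon lengths came from GENCODE M21. Deviations between the tables were correlated over genes with a mean of at least 50 counts.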

Additional observations from a re-analysis of the deposited data

How the results depend on the processing

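The depth of the aged dMCAO libraries limits what can be said of single mitosis genes there, because 3 counts equal 4.28 and 3.27 CPM. With 2 libraries a group, 1 library decides a group mean, and the sign of the list after sham and its size in aged mice rested on aged sham 2.

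The number of the 35 genes called, 0 by edgeR in each comparison, changed with the setting. With no filter on low counts 8 were lower in aged mice and 4 higher for age after sham. For age after dMCAO 1 was higher, and for the interaction 1 was below 0. In the same directions and order 459, 274, 300 and 150 of all 16396 genes were called. DESeq2 called 6, 2, 0 and 1, limma-voom with quality weights 0, 6, 0 and 0, and edgeR with a replicate block by the N code of the titles 2, 2, 0 and 0. Of 11955 tested genes, quality weights called 399 higher for age after sham. The N code block called 111 lower in aged mice and 102 higher for age after sham. The shares for DESeq2 are given above. The causes were not tested. The replicate numbers do not pair the libraries: correlations of same-numbered deviations between groups were -0.08, 0.09, 0.05, -0.07, -0.01 and 0.05. A replicate block by number called 0 of the 35 genes in each comparison, with medians of 0.27 and -2.33 for dMCAO in young and aged mice, 1.68 and -0.62 for age after sham and dMCAO, and -2.39 for the interaction. Under it the medians in young mice and for age after dMCAO changed sign. With the block by N code the medians were -1.13 and -1.94 for dMCAO in young and aged mice. They were 1.17 and 0.30 for age after sham and dMCAO, and -0.96 for the interaction.

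Leaving out each library in turn, the median log2 fold change ran from -0.53 to 0.95 in young mice, from -8.37 to 0.00 in aged mice, from -0.46 to 3.51 for age after sham, from -4.78 to 0.30 for age after dMCAO and from -7.15 to -0.02 for the interaction, with 0 of the 35 genes called in each. Thinning to the smallest total left 22 of the 35 genes above the filter, and over those the median was -0.89 in aged mice. The FPKM table with a pseudocount of 1 gave 0.48 for age after sham and -0.64 for age after dMCAO, over 33 genes. These medians are thus not over the same genes as the main fit. In limma-voom the medians were 0.15 in young mice and -0.55 for age after dMCAO. RLE factors moved the median of all tested genes from -0.32 to -0.16 for age after dMCAO, and that of the 35 genes from 0.21 to 0.38. In aged mice FPKM moved the median of all tested genes from -0.29 to -0.92.

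In young mice Pcna went from 0.41 to 0.00 with a replicate block by N code. Cdc20, at -1.87, was at 0.31 in limma-voom, 0.27 with quality weights, 0.00 in FPKM without its young sham 1 column (added after the data were seen) and 4.54 and -2.91 without young sham 2 and 1. The value of 4.54 sets counts against a group with none and is no size. The sum of the 35 genes in young dMCAO 1 was 512 CPM over plain totals, 449 with RLE factors and 522 with Rn45s left out. In young dMCAO 2 it was 515, 460 and 537, and 502 after thinning. For aged dMCAO 2 plain totals gave 573 CPM.

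The number of all genes called moved more. For young mice it was 1 by edgeR, 32 with no filter, 33 by DESeq2, 209 with quality weights and 173 in a fit of the 2 groups alone. For aged mice it was 4, 672, 1050, 1 and 0, for age after sham 0, 322, 390, 491 and 0, and for age after dMCAO 9, 735, 1233, 206 and 0. For the interaction the first 4 of these numbers were 0, 210, 300 and 0. With a replicate block by N code the counts were 15, 168, 116, 192 and 25 in that order of comparisons, and in FPKM with a pseudocount of 1 they were 16, 0, 27, 1044 and 9. With that pseudocount and no filter the FPKM counts were 14, 0, 16, 157 and 2, with a pseudocount of 0.1 they were 7, 116, 26, 1689 and 5, and without the young sham 1 column 85, 0, 95, 40 and 66. By limma-voom they were 0, 1, 3, 68 and 0, and after thinning 0 for young and 0 for aged mice. A replicate block by number gave 0 for aged mice and 3 for age after dMCAO, and RLE factors 4 for the latter. Leaving out each library gave 0 to 1 in young mice, 0 to 422 in aged mice, 0 to 4 for age after sham, 0 to 692 for age after dMCAO and 0 to 2 for the interaction.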

Other observations

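Some genes near the list had values of their own. Myc, a driver of growth and cycle entry, was 191 CPM in aged dMCAO 1 and 34.4 to 90.2 in the other 7 libraries, with its lowest value in aged sham 2, where the mitosis genes were highest. Rbl2, a pocket protein of the DREAM complex, was 116 CPM in aged sham 2, 35 in aged sham 1, 20.0 and 8.72 in aged dMCAO and 64.1 to 83.1 in the young libraries. Cdkn1b (p27), an inhibitor that holds cells in G1, was 118 CPM in aged sham 2 and 30.0 to 62.9 elsewhere. The linker histone gene Hist1h1e was 524 CPM in aged dMCAO 1, 300.3 and 259 in aged sham, 254 in aged dMCAO 2 and 109 to 163 in the young libraries. For Ptma, which encodes prothymosin alpha, the aged libraries lay at 582 to 839.7 CPM and the young ones at 276 to 489.9, with no overlap. For Hmgb1 the same ranges were 362 to 547 and 184 to 262. Of all tested genes, 18.2% after sham and 15.5% after dMCAO were higher in aged libraries without overlap. The share with no overlap across all 8 libraries was not counted. For these 6 genes edgeR called 0 in the 5 comparisons, as for their lists above.

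Prc1 and Cenpe each had 1 aged dMCAO library at the top of the 8 and the other near the bottom: Prc1 was 65.7 and 2.18 CPM in aged dMCAO 1 and 2, and Cenpe 4.28 and 124. Birc5 (0 and 29.4 CPM), Kif11 (0 and 49.1) and Ccnb1 (14.3 and 0) were likewise present in 1 of the 2 libraries.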
